A study of Mus musculus with 6 samples.

Results

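The 60 genes described here encode the secreted Wnt ligands, their Frizzled receptors, coreceptors and alternative receptors, and the proteins that inhibit, amplify or release the Wnt signal at the cell surface, with Dishevelled and its binding inhibitors. They were chosen by function as a fixed list of symbols, with earlier results of these data known. Each probe set that the platform annotation assigns to exactly 1 of them was taken. This gave 123 of the 45101 probe sets of the array and 60 of the 18194 genes named by a single-gene probe set. Of the 60 genes, 22 had 1 probe set and 38 had several, up to 6.

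Expression was measured on Affymetrix mouse arrays in total RNA from embryonic stem cells of 2 genotypes. The mutant cells lacked both Gsk-3 genes (Gsk-3a-/-; Gsk-3b-/-, called DKO below), and the wild-type cells were of the E14K line, with 3 arrays each. Both genotypes were kept on gelatin without feeder cells, with 15% serum and 1000 units of leukaemia inhibitory factor (LIF) per ml. The labels give neither the number of DKO clones nor the kind of replicate, so other differences between the cell lines cannot be told apart from the deletions, and each p-value rests on a spread between arrays that may be technical.

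Wnt proteins are lipid-modified by Porcn, carried to the cell surface by Wls and bound by a Frizzled protein together with Lrp5 or Lrp6. Without a ligand, a complex that contains Gsk-3 marks beta-catenin for degradation, and with a ligand beta-catenin accumulates and activates genes with Tcf/Lef factors. Several inhibitors of the pathway, among them Dkk1, Notum, Apcdd1, Nkd1, Rnf43 and Znrf3, are themselves known beta-catenin targets in other settings, and Wnt signalling supports the self-renewal of mouse embryonic stem cells.

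The 12 embryonic stem cell markers examined were at a log2 intensity of at least 4 on all 6 arrays. The replicate 3 array of each genotype differed from the others in its spike-in controls, with a mean log2 intensity of 9.84 (DKO) and 10.22 (wild-type), against 1.68 to 1.83 on the other 4 arrays. The labels name no batch. A block for this split was tried as an alternative, and differences within replicates 1 and 2 and within replicate 3 are given for the genes that passed. Median intensities were 10 or 11 on every array, and the number of arrays limits the precision. The log2 ratio of 3' to 5' signal for the Gapdh control was 0.60, 0.54 and 0.14 in DKO and 0.37, 0.22 and -0.04 in wild-type cells. For beta-actin it was 1.51, 1.85 and 1.06 in DKO and 1.62, 1.40 and 0.85 in wild-type cells. For the transferrin receptor it was 4.10 to 4.93. The part of these ratios in the differences was not tested. The targeted genes were weak checks of the labels: Gsk3a read 7.18, 7.08 and 6.04 in DKO and 8.65, 7.89 and 7.90 in wild-type cells (log2 intensity, adjusted p = 0.0942, and 0.00646 with the replicate number as a block), and the brightest Gsk3b probe set differed by -0.21 (adjusted p = 0.832). Where these probe sets lie relative to the deleted parts was not known here.

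Receptors were more often above the limit used here than Wnt ligands: 6 of 10 Frizzled genes and 0 of 18 ligands were detected in both genotypes. A gene was called detected in a genotype where 1 of its probe sets had a log2 intensity of at least 4 (intensity 16) on all 3 arrays. By this rule 22 of the 60 genes were detected in DKO and 24 in wild-type cells, 19 of them in both. Wnt5b, Lrp5 and Notum were detected in DKO but not on all wild-type arrays, and Wnt5a, Wnt9a, Fzd1, Fzd2 and Wls in wild-type but not on all DKO arrays. For 25 genes every probe set was under the limit on every array, and 8 (Wnt6, Fzd8, Fzd9, Ror1, Dkk3, Dkkl1, Frzb and Nkd1) reached it on some arrays only. A low intensity does not show that a transcript is absent, since the probe sets differ in brightness and the table has no detection flags.

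**Figure D1:**
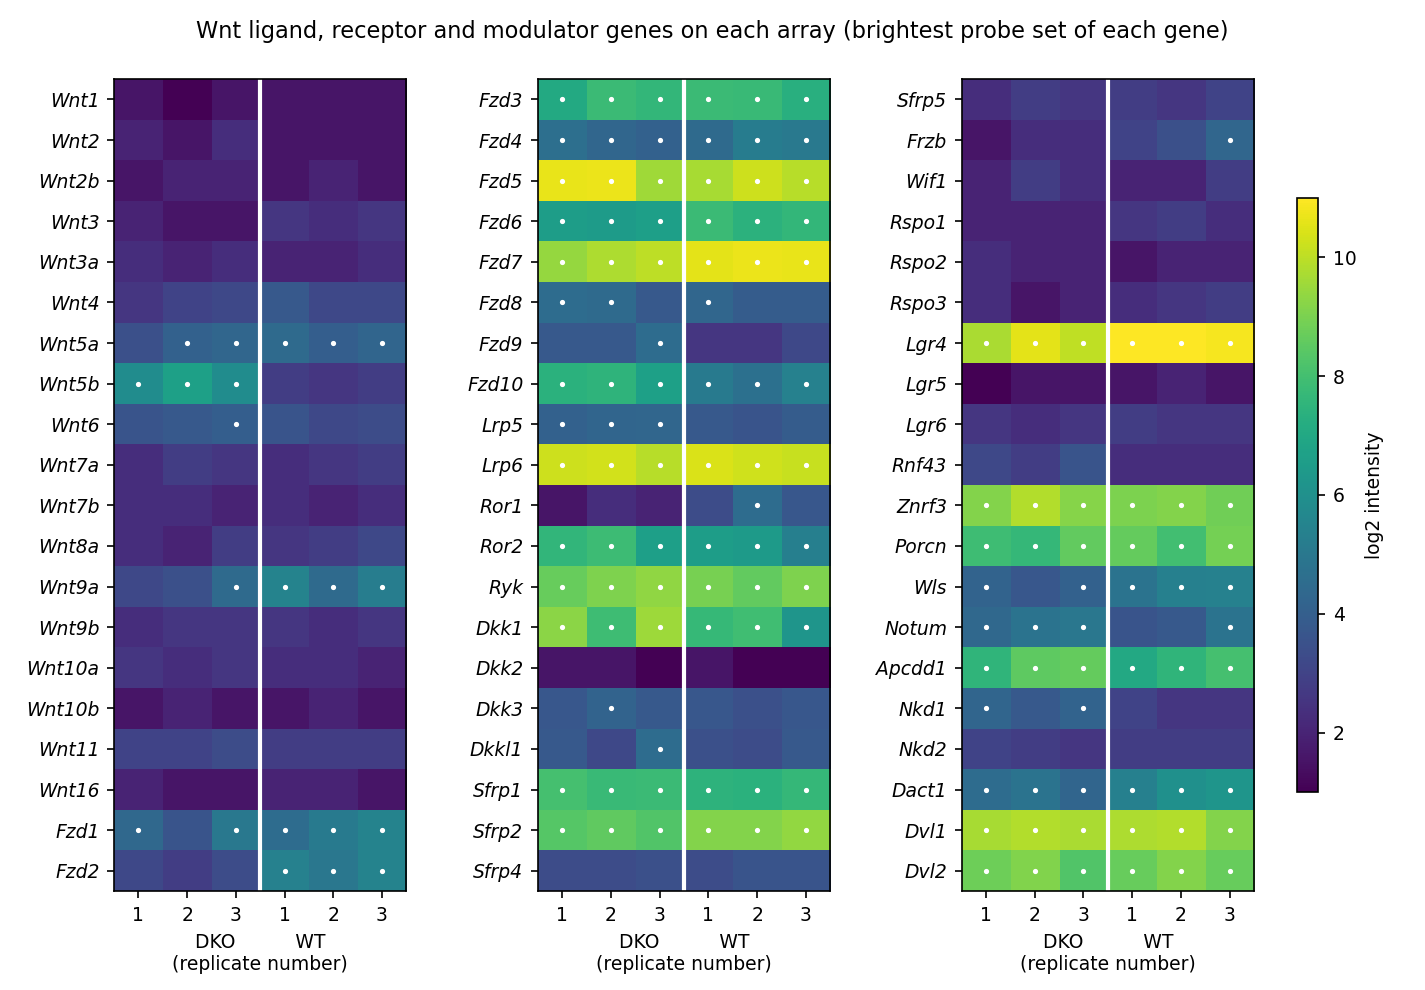
Log2 intensity (colour) of the 60 genes on the 3 DKO arrays and, right of the white line, the 3 wild-type arrays, for the brightest probe set of each gene; a white dot marks a value of at least 4, and colours compare arrays within a row, not genes. Dots are rare among the 18 Wnt ligands and present on all 6 arrays for Fzd3, Fzd5, Fzd7, Lrp6, Lgr4, Znrf3, Dvl1 and Dvl2.

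Of the 28 genes that could be tested, 6 passed, and they include both the largest rise, of the ligand Wnt5b, and a fall of the receptor Fzd2. Tested were probe sets with a log2 intensity of 4 or more on any 3 of the 6 arrays, which held for 44 of the 123 probe sets and 28 of the 60 genes. Genes were read on their brightest tested probe set, and a gene passed at an adjusted p under 0.05 over all 20841 tested probe sets of the array. Wnt5b and Fzd10 rose in DKO, and Fzd2, Fzd6, Wls and Dact1 fell. That is 6 of 28 genes (21.4%), against 4.13% of all 10496 tested genes, of which 1.64% were higher and 2.5% lower in DKO. It is 7 of 44 probe sets (15.9%), 3 higher and 4 lower, against 3.24% of all tested probe sets, 1.31% higher and 1.93% lower. The list was chosen with earlier results of these data known, so these shares are a description only. The median log2 difference over the 28 genes was -0.11, against 0.00 over all tested genes, with 13 above and 15 below 0. Of the 44 probe sets, 5 (of Wnt5b, Fzd2, Lrp5 and Wls) were tested only because 1 genotype lay above the limit, and 3 of these passed. Among the 31 probe sets above the limit on all 6 arrays 3 passed, against 1.94% of all such probe sets, and 1 passed when the fit was made on such probe sets alone.

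Same-numbered arrays of the genotypes deviated together from their genotype means, and with the replicate number as a block more genes passed. The block raised the count to 11 of 28, 3 higher and 8 lower in DKO, against 10.7% of all tested genes under the same block, 5.07% higher and 5.63% lower. Of the 44 probe sets 14 passed (31.8%), 5 higher and 9 lower, against 9.57% of all, 4.31% higher and 5.26% lower. Wnt9a, Fzd7, Sfrp2 and Lgr4 were lower and Ror2 was higher among the 5 added genes. The block is balanced, so it changed the errors and not the differences. The 3 DKO values lay wholly above or below the 3 wild-type values in 20 of the 44 probe sets (45.5%), against 16.7% of all tested probe sets. In 18 of the 28 genes the difference had the same sign in all 3 same-numbered pairs, with 8 higher and 10 lower in DKO. That is 18 of 28, against 42.9% of all tested genes.

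**Figure D2:**
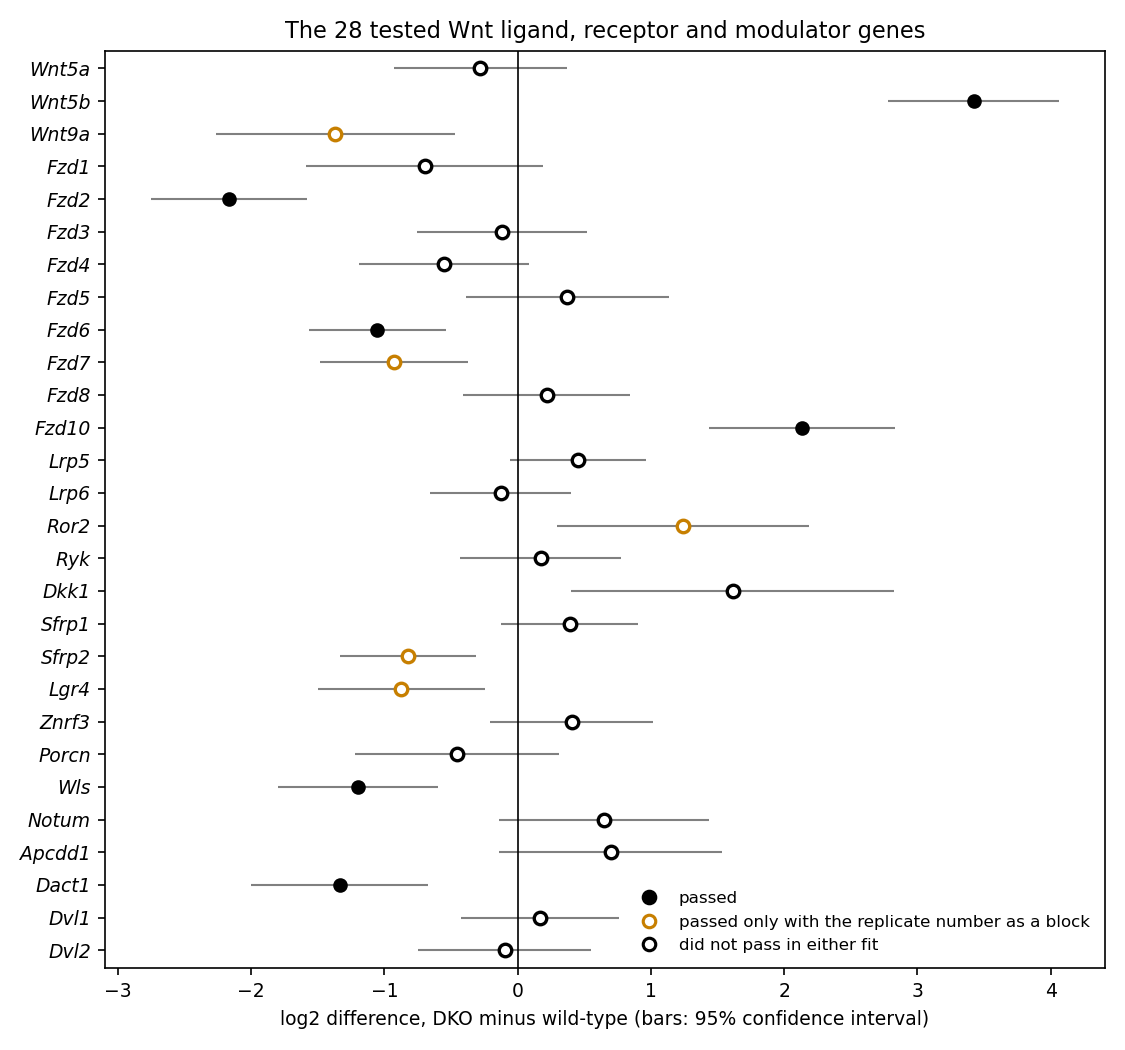
Log2 difference, DKO minus wild-type, of the 28 tested genes (points) with 95% confidence intervals from the unblocked fit (bars), in the order ligands, receptors, inhibitors, secretion and Dishevelled genes. Wnt5b at 3.42 and Fzd10 at 2.14 lie farthest to the right, and Fzd2 at -2.17 farthest to the left.

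Among the 18 Wnt ligands Wnt5b was the only gene to pass. Wnt5b is a ligand best known for signalling that does not run through beta-catenin. Its brighter probe set read 5.88, 6.70 and 5.88 on the DKO arrays, against 2.81, 2.58 and 2.81 on the wild-type arrays (log2 intensity). All DKO arrays were above the limit and all wild-type arrays near the bottom of the scale, with no overlap. The log2 difference was 3.42 (SE 0.28, adjusted p = 0.000426), and since wild-type cells were under the limit the fold is given only as at least 4.45. The name of this probe set ends in x_at, which in Affymetrix naming marks probes that may also match other genes. The second probe set, without that mark, read 4.46, 4.46 and 4.91 in DKO and 2.58, 2.32 and 2.32 in wild-type cells, and also passed (difference 2.20, adjusted p = 0.00152, at least 1.52-fold). Both passed whichever array was left out, with adjusted p-values up to 0.00872 and 0.0158. The brighter probe set differed by 3.60 within replicates 1 and 2 and by 3.08 within replicate 3. With 16 added to each intensity before the log its difference was 1.95 and passed (adjusted p = 0.00343).

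The RefSeq table (GRCm38.p6) holds 3 promoter windows of Wnt5b, which are shown because the gene had the largest difference of the list. The 250 bases before each start are printed, from the reference genome and not from these cells, and capitals mark CTTTG or its reverse complement CAAAG, the core letters bound by Tcf/Lef factors. The first holds 2 matches, of which 1 extends to CTTTGAT, the second holds 0 and the third 1. Over the whole windows of 300 bases (250 before and 50 after the start), CTTTG was found on either strand in 53.9% and CTTTGAT, which contains it, in 3.7% of all 32851 promoters, and in 40.9% and 4.5% of the 44 promoters of 40 genes of the list. A match describes the letters and is no evidence of binding.
Wnt5b start 1, chr6:119449387-119449636, minus strand: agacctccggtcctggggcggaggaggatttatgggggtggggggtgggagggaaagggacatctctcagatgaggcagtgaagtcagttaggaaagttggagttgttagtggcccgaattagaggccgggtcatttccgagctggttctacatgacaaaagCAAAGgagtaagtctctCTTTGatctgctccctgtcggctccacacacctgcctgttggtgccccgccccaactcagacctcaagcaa
Wnt5b start 2, chr6:119467212-119467461, minus strand: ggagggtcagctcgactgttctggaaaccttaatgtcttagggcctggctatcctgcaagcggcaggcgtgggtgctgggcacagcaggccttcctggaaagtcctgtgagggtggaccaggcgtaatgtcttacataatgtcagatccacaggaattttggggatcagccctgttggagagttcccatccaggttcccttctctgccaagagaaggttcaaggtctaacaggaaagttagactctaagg
Wnt5b start 3, chr6:119544348-119544597, minus strand: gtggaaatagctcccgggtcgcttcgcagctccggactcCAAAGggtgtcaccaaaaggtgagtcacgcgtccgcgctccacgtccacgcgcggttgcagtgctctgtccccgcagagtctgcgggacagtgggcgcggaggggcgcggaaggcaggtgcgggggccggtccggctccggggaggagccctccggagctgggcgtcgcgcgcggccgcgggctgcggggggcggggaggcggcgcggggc

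Wnt9a and Wnt5a were the other tested ligands, and neither passed. Wnt9a, a ligand with roles in joint and limb development, read 3.17, 3.46 and 4.46 in DKO, against 5.49, 4.46 and 5.25 in wild-type cells. The highest DKO array met the lowest wild-type array. The difference of -1.37 (95% confidence interval -2.27 to -0.47) had an adjusted p of 0.13, of 0.0186 with the replicate block, and of 0.0434 without DKO replicate 3. Wnt5a, a close relative of Wnt5b, read 3.46, 4.09 and 4.32 in DKO and 4.46, 4.0 and 4.25 in wild-type cells on its only tested probe set, with overlapping arrays and a difference of -0.28 (95% confidence interval -0.93 to 0.37, adjusted p = 0.812).

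The other 15 ligands were not tested. Wnt6 reached the limit on DKO replicate 3 only, and the remaining 14, among them Wnt3, Wnt3a and Wnt8a, which act in the primitive streak of the embryo, were under it on all arrays. Over the 29 probe sets of Wnt ligands, 23 were under the limit on all 6 arrays. In the RefSeq gene order the list holds 4 pairs of neighbouring ligand genes: Wnt6 with Wnt10a on chromosome 1, Wnt3a with Wnt9a and Wnt9b with Wnt3 on chromosome 11, and Wnt10b with Wnt1 on chromosome 15. Wnt9a, the only tested gene of the 8, stood beside Wnt3a, which read 2.32, 2.0 and 2.32 in DKO and 2.0, 2.0 and 2.32 in wild-type cells.

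Of the 10 Frizzled genes 9 were tested, 1 rose (Fzd10), 2 fell (Fzd2 and Fzd6) and 6 did not pass. Fzd10 read 7.39, 7.52 and 6.67 in DKO, against 5.09, 4.70 and 5.39 in wild-type cells. Every DKO array lay above every wild-type array. The difference was 2.14 on the log2 scale (SE 0.31, adjusted p = 0.0063), a 4.40-fold rise, and was 2.31, 2.82 and 1.28 in the same-numbered pairs 1, 2 and 3. Its mean log2 intensity was 7.20 ± 0.46 for the DKO arrays and 5.06 ± 0.35 for the wild-type arrays (SD, n = 3 each). Omitting DKO replicate 1 took the adjusted p to 0.0589, and omitting any other single array left it under the threshold.
The promoter of Fzd10 is printed in the same way; it holds 1 match to CTTTG and 0 to CTTTGAT in its window, and 45 CG dinucleotides.
Fzd10, chr5:128600856-128601105, plus strand: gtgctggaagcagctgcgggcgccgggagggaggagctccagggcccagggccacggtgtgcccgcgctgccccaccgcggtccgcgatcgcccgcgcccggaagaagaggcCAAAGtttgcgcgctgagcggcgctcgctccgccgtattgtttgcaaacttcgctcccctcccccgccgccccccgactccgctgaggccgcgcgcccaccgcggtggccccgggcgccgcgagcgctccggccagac

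Fzd2 read 3.17, 2.81 and 3.32 in DKO, against 5.39, 4.95 and 5.46 in wild-type cells. The DKO arrays were all under the limit and did not overlap with wild-type. The difference was -2.17 (SE 0.26, adjusted p = 0.00241), at least 2.41-fold lower in DKO, and was alike in the pairs at -2.22, -2.15 and -2.14. With 16 added to each intensity before the log the difference was -1.15 and still passed (adjusted p = 0.0172). The other 2 probe sets of Fzd2 were under the limit on all 6 arrays and were not tested.

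Fzd6, a receptor of planar cell polarity, read 6.57, 6.48 and 6.64 in DKO, against 7.81, 7.43 and 7.61 in wild-type cells, with no overlap. The fall was 1.05 on the log2 scale, or 2.07-fold (SE 0.23, adjusted p = 0.043), and it passed in 0 of 6 fits with an array omitted (adjusted p = 0.0828 to 0.146). It was -1.09 within replicates 1 and 2 and -0.97 within replicate 3. Fzd7, a Frizzled gene known to be prominent in pluripotent cells, read 9.40, 9.76 and 10.02 in DKO, against 10.60, 10.70 and 10.66 in wild-type cells. Here too every DKO array was lower, but the difference of -0.93 (SE 0.25) had an adjusted p of 0.0964, and of 0.0248 with the replicate block and 0.0491 with an intensity trend in the fit. With the same trend Fzd6, Wls and Dact1 did not pass (adjusted p = 0.0708, 0.0639 and 0.0595).

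Fzd1, Fzd3, Fzd4, Fzd5 and Fzd8 did not pass with or without the block. Fzd5 read 10.66, 10.69 and 9.59 in DKO and 9.70, 10.22 and 9.91 in wild-type cells, a difference of 0.37 (95% confidence interval -0.39 to 1.14, adjusted p = 0.774). Fzd1 read 4.39, 3.58 and 5.0 in DKO and 4.52, 5.09 and 5.46 in wild-type cells (difference -0.70, adjusted p = 0.545). Fzd4 read 4.64, 4.32 and 4.09 in DKO and 4.46, 5.21 and 5.04 in wild-type cells (difference -0.55, adjusted p = 0.482). In Fzd5, Fzd1 and Fzd4 the arrays overlapped. Fzd3 was tested on 5 probe sets, with differences from -0.60 to 0.19 and 0 passed. Its brightest read 7.07, 7.83 and 7.64 in DKO and 7.81, 7.76 and 7.31 in wild-type cells, with overlap. A dimmer Fzd3 probe set, at 5.64, 5.86 and 6.02 in DKO and 6.07, 6.57 and 6.70 in wild-type cells, had no overlap (difference -0.60, adjusted p = 0.361). Fzd8 was near the limit in both genotypes (difference 0.22, adjusted p = 0.859), and Fzd9, not tested, read 3.81, 3.81 and 4.52 in DKO and 2.58, 2.58 and 3.17 in wild-type cells, without overlap.

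**Figure D3:**
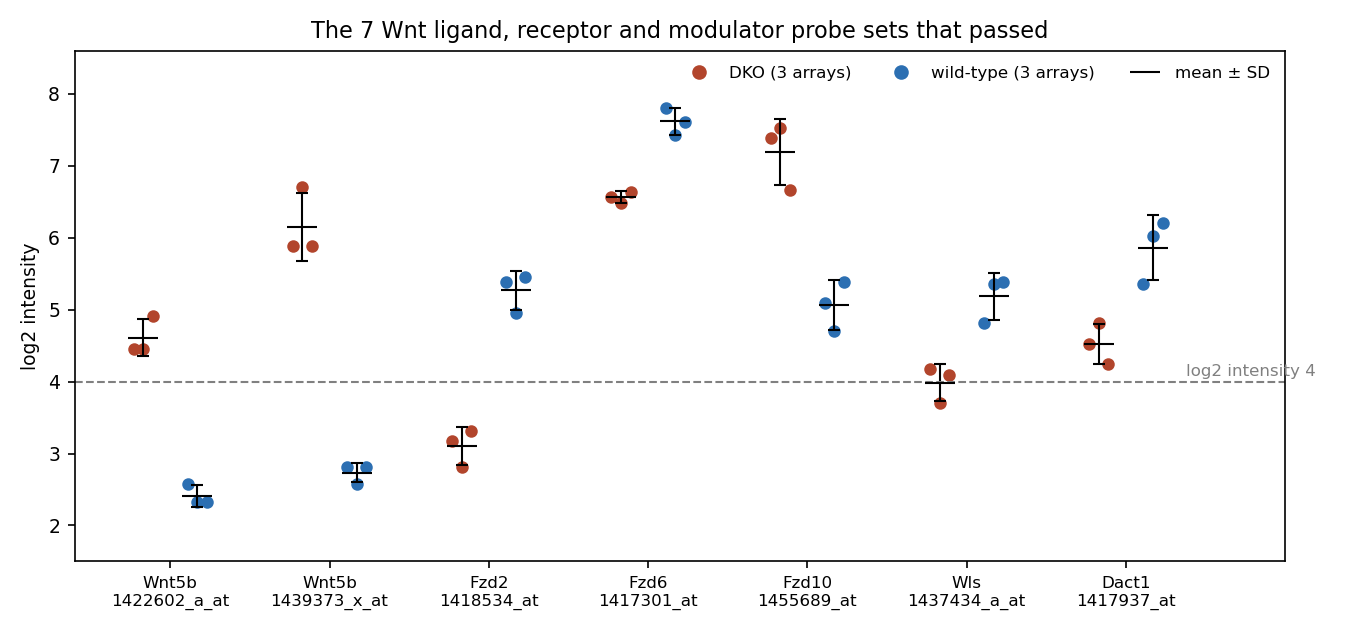
Log2 intensity of the 7 probe sets that passed on each DKO array (red, left) and each wild-type array (blue, right), with mean and SD in black and the limit of 4 as a dashed line. No genotypes overlap; Wnt5b lies under the limit in wild-type and Fzd2 in DKO cells.

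Coreceptors and alternative receptors showed no gene that passed without the block. Ror2, a receptor tyrosine kinase that binds Wnt5a, read 7.57, 7.85 and 6.66 in DKO, against 6.58, 6.44 and 5.32 in wild-type cells. The lowest DKO array was just above the highest wild-type array, both genotypes were lowest in replicate 3, and the pairs differed by 0.99, 1.40 and 1.34. The log2 difference of 1.24 (SE 0.42) had an adjusted p of 0.206, and of 0.00503 with the replicate block. Lrp6, the main beta-catenin coreceptor and itself a substrate of Gsk-3, read 10.22, 10.33 and 9.91 in DKO and 10.43, 10.26 and 10.15 in wild-type cells, and its difference of -0.13 had a 95% confidence interval of -0.66 to 0.40. Lrp5 read 4.09, 4.25 and 4.32 in DKO and 3.81, 3.58 and 3.91 in wild-type cells, on either side of the limit without overlap, with a difference of 0.45 that did not pass (adjusted p = 0.467). Ryk, a receptor related to tyrosine kinases, was tested on 3 probe sets with differences from 0.07 to 0.36, and 0 passed. Ror1 was not tested; its brightest probe set read 1.58, 2.32 and 2.0 in DKO and 3.32, 4.52 and 3.70 in wild-type cells.

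Of the 10 genes of secreted antagonists and the Dkk family 3 were tested and none passed by limma without the block, although 2 had an unadjusted p under 0.05; with the block Sfrp2 passed. Dkk1, which blocks Lrp5 and Lrp6, read 9.26, 7.90 and 9.53 in DKO, against 7.71, 7.92 and 6.23 in wild-type cells. DKO replicates 1 and 3 were high and wild-type replicate 3 low, while the replicate 2 arrays were alike. The difference of 1.61 had an SE of 0.54 and a 95% confidence interval of 0.40 to 2.82 (adjusted p = 0.196, and 0.0693 with the block). It was 0.77 over replicates 1 and 2 alone and 3.31 in replicate 3. Its second probe set differed by 1.64 (adjusted p = 0.322). Markers of primitive endoderm, the cells that line the early embryo, were also low on wild-type replicate 3: their summed intensity over 12 genes was 3306, 3041 and 5105 in DKO and 4331, 3704 and 1092 in wild-type cells, with Afp, Apoa1 and Ttr under the limit on all arrays. Of these genes 9 were tested and 0 passed on their brightest probe set by limma (1 of their 17 tested probe sets passed). At an unadjusted p under 0.05 were 4 of the 9, against 1542 of all 10496 tested genes. With the block 1 of 9 passed, Hnf4a, higher in DKO by 2.61 (adjusted p = 0.0255), against 10.7% of all tested genes. So did 3 of the 17 probe sets, all higher in DKO, against 9.57% of all tested probe sets. The part of these markers in the Dkk1 values was not tested.

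Sfrp2, a secreted Frizzled-related protein that binds Wnt, read 8.35, 8.57 and 8.30 in DKO, against 9.14, 9.16 and 9.39 in wild-type cells. Every DKO array was lower, and the difference of -0.82 (SE 0.23) had an adjusted p of 0.11, and of 0.0381 with the block. Sfrp1, of the same family, had 4 tested probe sets with differences from 0.13 to 0.60, all above 0, and 0 passed. Its brightest read 8.07, 7.79 and 7.83 in DKO, against 7.47, 7.38 and 7.66 in wild-type cells. Frzb, not tested, read 1.58, 2.32 and 2.32 in DKO and 3.0, 3.46 and 4.32 in wild-type cells. Dkk2, Sfrp4, Sfrp5 and Wif1 were under the limit on every array, and Dkk3 and Dkkl1 reached it on 1 DKO array each.

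In the R-spondin and Lgr axis, which stabilises Frizzled proteins by removing the ubiquitin ligases Rnf43 and Znrf3, only Lgr4 and Znrf3 were tested. Lgr4, an R-spondin receptor, read 9.72, 10.59 and 10.05 in DKO, against 11, 11.11 and 10.86 in wild-type cells. All DKO arrays were lower. The difference of -0.87 (SE 0.28) had an adjusted p of 0.171, and of 0.0389 with the block. Znrf3 read 9.15, 9.86 and 9.18 in DKO and 9.01, 9.14 and 8.82 in wild-type cells, narrowly without overlap, and its difference of 0.41 did not pass in either fit (95% confidence interval -0.21 to 1.02, adjusted p = 0.646). Rspo1, Rspo2, Rspo3, Lgr5, Lgr6 and Rnf43 were under the limit on all arrays. Rnf43 read 3.17, 2.81 and 3.58 in DKO and 2.32 on each wild-type array.

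Of the secretion genes Wls fell and Porcn did not pass. The brightest probe set of Wls read 4.17, 3.70 and 4.09 in DKO, against 4.81, 5.36 and 5.39 in wild-type cells. DKO arrays lay around the limit and below every wild-type array. The fall was 1.20 on the log2 scale, or 2.30-fold (SE 0.27, adjusted p = 0.0472), and another probe set fell short of the threshold at a difference of -1.21 (adjusted p = 0.0582). The difference was -1.15 within replicates 1 and 2 and -1.31 within replicate 3. Leaving out an array, Wls passed only without wild-type replicate 1 (adjusted p = 0.041) and was otherwise at up to 0.209. With 16 added to each intensity the difference was -0.72 and did not pass. Porcn read 7.91, 7.65 and 8.61 in DKO and 8.63, 7.99 and 8.91 in wild-type cells, with overlapping arrays and a difference of -0.46 (adjusted p = 0.699).

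Neither Notum nor Apcdd1, the feedback inhibitors tested, passed on its brightest probe set. Notum, an enzyme that removes the lipid of Wnt proteins, read 4.39, 4.81 and 4.95 in DKO and 3.58, 3.81 and 4.81 in wild-type cells (difference 0.65, adjusted p = 0.51). Apcdd1, a membrane-bound inhibitor, read 7.55, 8.53 and 8.64 in DKO and 7.03, 7.55 and 8.04 in wild-type cells. Each DKO array was above the wild-type array of its number, and the genotypes overlapped. All 3 tested probe sets of Apcdd1 were above 0, at 0.70 to 1.0, and 1 of them passed with the replicate block (adjusted p = 0.0216; 0.144 without it). Nkd1 was not tested, with 4.25, 3.81 and 4.17 in DKO and 3.0, 2.58 and 2.58 in wild-type cells on its brightest probe set.

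Among Dishevelled genes and their binding inhibitors Dact1 fell. Dact1, which binds Dishevelled, read 4.52, 4.81 and 4.25 in DKO, against 5.36, 6.02 and 6.21 in wild-type cells, without overlap. The fall was 1.34 on the log2 scale, or 2.53-fold (SE 0.30, adjusted p = 0.0463; 0.0089 with the block), and with an array omitted it passed only without wild-type replicate 1 (adjusted p = 0.0269; 0.193 at most). The differences in the pairs were -0.83, -1.22 and -1.96. With 16 added to each intensity the difference of Dact1 was -0.93 and did not pass (adjusted p = 0.0833). Nor did Dact1 pass with quantile normalization (adjusted p = 0.0646). Over the alternative fits Dact1 passed in 6 of 18, Wls in 5 of 16 and Fzd6 in 8 of 18. Dvl1 and Dvl2, which relay the signal from Frizzled, differed by 0.17 (95% confidence interval -0.43 to 0.76) and -0.10 (95% confidence interval -0.75 to 0.55), and did not pass. Nkd2 was under the limit on all arrays.
The promoters of the other 2 genes that fell and have an entry in the RefSeq table are shown beside those of the risen genes. Wls holds 2 matches to CTTTG in its window and Dact1 holds 0, with 11 and 50 CG dinucleotides, and neither holds CTTTGAT.
Wls, chr3:159839400-159839649, plus strand: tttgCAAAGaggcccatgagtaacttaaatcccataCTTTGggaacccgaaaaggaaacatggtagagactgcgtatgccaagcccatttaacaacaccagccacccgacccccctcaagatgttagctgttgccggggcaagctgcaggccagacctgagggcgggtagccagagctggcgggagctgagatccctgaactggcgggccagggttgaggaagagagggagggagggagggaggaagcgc
Dact1, chr12:71309634-71309883, plus strand: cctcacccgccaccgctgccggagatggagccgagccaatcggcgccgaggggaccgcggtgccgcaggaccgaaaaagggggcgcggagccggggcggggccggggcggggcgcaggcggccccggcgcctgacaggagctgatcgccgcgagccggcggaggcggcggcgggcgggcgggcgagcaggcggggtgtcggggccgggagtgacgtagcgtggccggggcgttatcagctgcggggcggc

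**Figure D4:**
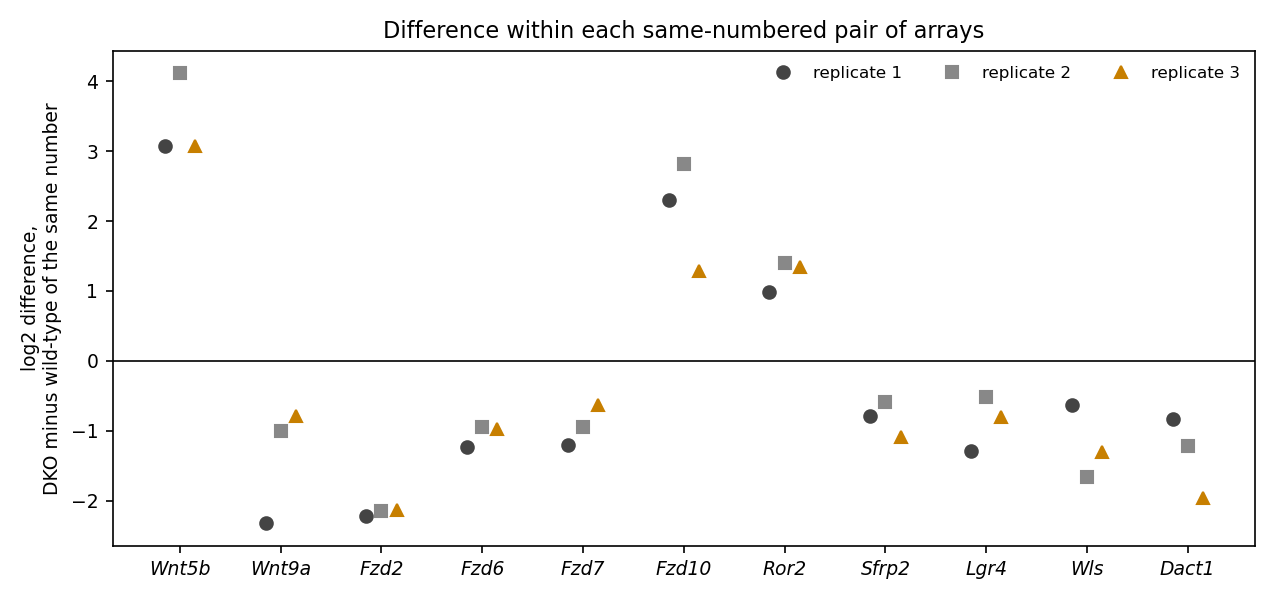
Log2 difference within each same-numbered pair of arrays, DKO minus wild-type, for the 11 genes that passed with the replicate number as a block (grey circles, replicate 1; grey squares, replicate 2; orange triangles, replicate 3). All 3 pairs lie on the same side of 0 for each gene, close together for Fzd2 and spread for Wnt9a, at -2.32, -1.0 and -0.79.

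Other genes of the pathway were read in the same fit. Of 42 further ligand, receptor and modulator genes 24 were tested, 0 rose, 1 fell and 23 did not pass. Kremen2 had no single-gene probe set under this symbol and was not read. The share that passed was 4.17%, against 4.13% of all tested genes. The gene that fell was Sulf1, a sulfatase that edits the heparan sulfate chains which hold Wnt proteins at the cell surface, at 8.78, 8.65 and 8.78 in DKO, against 9.77, 10.36 and 10.16 in wild-type cells (difference -1.36, adjusted p = 0.019, and 0.0233 to 0.102 with an array omitted). With the block 5 of 24 passed, against 10.7% of all tested genes: the polarity genes Prickle2 and Celsr1 were higher, by 1.33 and 0.95, and Celsr2 (-1.54), Ankrd6 (-0.96) and Sulf1 were lower.

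Of 24 beta-catenin target genes outside the list of 60, 18 were tested, 6 rose, 1 fell and 11 did not pass. T and Tcf7 had no single-gene probe set under these symbols and were not read. The share that passed was 38.9%, against 4.13% of all tested genes, 1.64% higher and 2.5% lower in DKO. The targets were written with earlier results of these samples known. Axin2, which scaffolds the complex that contains Gsk-3, read 10.30, 10.02 and 9.84 in DKO, against 6.71, 6.51 and 6.52 in wild-type cells (difference 3.47, adjusted p = 0.000151). Sp5, a transcription factor, differed by 4.28, and the homeobox genes Nkx1-2, Cdx1 and Cdx2 by 6.31, 4.31 and 4.09; Nkx1-2 and Cdx1 were under the limit on all wild-type arrays. Tnfrsf19, a receptor of the tumour necrosis factor family, rose by 1.24 (adjusted p = 0.0288, and 0.0578 to 0.106 with an array omitted). Lef1, a Tcf/Lef factor, fell by 1.21 (adjusted p = 0.0287, and 0.0362 to 0.148 with an array omitted). The median difference of the 18 was 0.73, and that of the 28 ligand, receptor and modulator genes was -0.11.

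Markers of other cell types that differed between the genotypes are given beside these counts. Of 12 neural markers 7 were tested, 3 fell (Pax6, Neurod1 and Ncam1), 0 rose and 4 did not pass. Over all tested genes 4.13% passed. With the block 6 of the 7 passed, all lower in DKO, against 10.7% of all tested genes. The summed intensity of the neural markers was 631 to 803 in DKO and 1897 to 2276 in wild-type cells, with Neurog2, Pax3, Olig2 and Dcx under the limit on all arrays. This sum was mostly that of Ncam1, at log2 intensities of 8.85, 9.01 and 8.70 in DKO and 10.69, 10.71 and 10.23 in wild-type cells. Of 12 primitive streak and mesoderm markers 3 were tested and 0 passed by limma, with 3 at an unadjusted p under 0.05 and 2 passing with the block. Their summed intensity was 441 to 701 in DKO and 191 to 294 in wild-type cells, with Gsc, Mesp1, Mesp2, Tbx6, Msgn1 and Fgf8 under the limit. Fibroblast markers summed to 1341 to 2168 in DKO and 821 to 1618 in wild-type cells, and trophoblast markers to 2866 to 5749 in DKO and 4208 to 7667 in wild-type cells, with 0 of 5 and 0 of 3 tested genes passing on their brightest probe set by limma and 1 of each list at an unadjusted p under 0.05. With the block 1 fibroblast marker passed, Col1a1, lower in DKO by -1.34 (adjusted p = 0.00506), and 0 of 3 trophoblast markers on their brightest probe set. Of the 7 tested probe sets of trophoblast markers 1 passed, and 2 with the block, all lower in DKO. Over all tested probe sets 3.24% passed, and 9.57% with the block. The fibroblast sum was mostly that of Pdgfra, at log2 intensities of 9.92, 9.96 and 10.86 in DKO and 9.98, 10.12 and 8.78 in wild-type cells. The part of other cell types in the values of the 60 genes was not tested. In bulk RNA, fewer cells of a type and less RNA per cell cannot be told apart.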

How the data were processed

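Total RNA (25 ng) was amplified and biotin-labelled as cDNA, per the labels' protocols. The deposited intensity values, 1 whole number per probe set and array, were made by the authors; per the submitters' processing notes, tools included limma 2.16.5, R 2.8.0, GCRMA 2.14.1 and GCOS, with no roles stated. No scale is stated, and the values were taken as linear. A genome build was not given in the sources used here. Values were converted to log2 with no pseudocount; rounding makes low values coarse. Gene names came from the platform annotation, matched to RefSeq by gene identifier; of 45101 probe sets, 34958 had 1 gene, 932 several and 9211 are unnamed here.

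Differences (DKO minus wild-type) were fitted with limma 3.58.1 under R 4.3.3, using lmFit and two-sided eBayes tests, over 20841 probe sets with a log2 value of at least 4 on at least 3 of 6 arrays, without the 64 array controls, with Benjamini-Hochberg adjustment over all of them; the procedure was tested on simulated data. The simulated arrays had no replicate structure, and the planted differences were larger than those of Fzd6, Wls and Dact1. The simulation therefore does not bear on calls near the threshold. Each gene was read on its brightest tested probe set, by mean over the 6 arrays. SD and n = 3 arrays apply to each genotype; SE is the moderated standard error. Where all arrays of a genotype were under 4, the fold is a lower limit against the higher of 4 and the measured value. Values on every array were given for genes that passed, for detected ligands and Frizzled genes and for genes without overlap on every tested probe set; from each pathway list, up to 6 genes that passed with the largest differences were to be named. Lef1, Prickle2, Celsr1, Celsr2 and Ankrd6 are outside this rule. Values of further genes were chosen for printing after they were seen. The genes and lists were chosen with earlier results of these data known.

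No 2 arrays held the same values (at most 1.79% of tested probe sets were equal). Across probe sets, DKO and wild-type arrays of one replicate number deviated together (r of the deviations 0.427, 0.354 and 0.595). Between arrays of unlike numbers r was -0.488 to 0.113. The numbers in the titles were therefore taken as pairs, although no label explains them. The fit without the block was kept as the main one. Blocks, scalings, filters, tests and leaving out each array were tried as alternatives. Promoter sequences are from RefSeq, with 40 of 60 genes matched by symbol.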

Additional observations from a re-analysis of the deposited data

How the results depend on the processing

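Counts over the 60 genes moved with the processing. Blocks, filters and tests leave the differences unchanged. These could move only with the scaling, the added 16, omitted arrays or a mean over the probe sets of a gene. Of 6 genes and 7 probe sets, the replicate block gave 11 and 14, replicates 1 and 2 alone 3 and 4, the limit of 4 on all 6 arrays 1 and 1, no filter 3 genes (Wnt5b, Fzd2 and Fzd6) and the limit of 5 on 3 arrays 4 probe sets. The linear model without moderation gave 0 genes and 0 probe sets, with 11 and 16 at an unadjusted p under 0.05. Leaving out 1 array gave 2 to 5 genes and 3 to 7 probe sets: 2 genes without DKO replicate 1, and 3 without DKO replicate 2, wild-type replicate 2 or wild-type replicate 3. Wnt5b and Fzd2 were not tested with the limit on all 6 arrays and Fzd2 not with the limit of 5; wherever they were tested they passed, except without moderation. Without the filter 2 dim probe sets also passed, of Wnt5a and Frzb, at an intensity of 3 against 4 and of 4 against 5 on every array (DKO against wild-type), which is 1 rounding step with no spread. With a limit of 6, 15 genes were detected in wild-type cells in place of 24.

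Over all features 675 probe sets and 434 genes passed. The replicate block gave 1995 and 1123, a block for the spike-in split 1117 and 687, the limit on all 6 arrays 280 and 185, and no moderation 31 and 22. Replicates 1 and 2 alone gave 440 probe sets, and no filter gave 247 genes, 49.8% of them higher in DKO (39.6% with the filter), and 495 probe sets, 51.5% of them higher (40.4% with the filter). Leaving out an array gave 290 to 604 probe sets and 184 to 374 genes. Of the 675 probe sets 0 changed sign in any of these alternatives that tested them. Blocks, filters, the intensity trend and the fit without moderation leave each difference as it is. Only scalings, the added 16 and omitted arrays could change a sign, in probe sets already selected with differences of at least 1.01. Quantile normalization gave a median difference of 0.002 over all tested probe sets, against -0.019 as deposited. Intensities under 16 are coarse and give the direction of dim genes little precision.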

Other observations

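Promoters of the list were rich in CG dinucleotides. Of the 44 RefSeq promoter windows of 40 genes 29 (65.9%) had a GC content of at least 55% and an observed over expected ratio of CG of at least 0.65, against 28.1% of all 32851 windows. The median GC content was 66.2%, against 52.7% over all windows. All windows together cover 27025 genes, which were not matched to the list by kind of gene. By this rule 13 of 18 windows (72.2%) of genes detected in either genotype were CG-rich, and 16 of 26 (61.5%) of the other genes, with no test of the difference. These are counts of letters in the reference genome, and no methylation was measured in the files used here.

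Of the 79 probe sets of the list that were too dim to test, 46 stayed under a log2 intensity of 3 on every array. Among the untested, 5 had means at least 1 log2 unit apart without overlap. They were chosen after their values were seen and have no test: Fzd9 and Nkd1 were higher in DKO, by 1.27 and 1.35, and Ror1, Frzb and a probe set of Wnt4 were lower, by -1.88, -1.52 and -1.02.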
